A study of Mus musculus with 2 samples.

Results

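The genes of the DNA replication machinery were followed in newly made and in preexisting RNA of mouse embryonic stem cells. The set holds 46 genes, chosen by symbol with no measured value in the rule, and their transcripts were found by taking each protein-coding transcript that the GENCODE M21 annotation assigns to one of these symbols. This gave 104 of the 49490 protein-coding transcripts in the deposited table. All 46 genes were measured in both RNA pools, and all passed the filter on low values, a mean exon value above 1, which 14127 of 21587 coding genes passed.

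The cells were wild-type DTCM23/49 XY embryonic stem cells, a pluripotent line depleted of feeder cells and grown in serum with leukemia inhibitory factor. They received 200 µM 4-thiouridine (4sU), which is incorporated in place of uridine while RNA is made, for 10 min. The thiolated RNA was then biotinylated and pulled down, which gives a labeled pool made during the pulse, and the RNA left in the supernatant gives the unlabeled pool. Each pool was sequenced as 1 library of replicate 1, so there are 2 libraries from the same genotype and treatment, and 1 labeled against 1 unlabeled library is the only comparison. No value below has a replicate error, no test was made, and every statement describes these 2 libraries. Sample labels name the unlabeled library both as preexisting and as total RNA, and it was read as the former.

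DNA replication starts at origins that the origin recognition complex (ORC) marks. CDC6 and CDT1 then load the ring-shaped MCM2-7 helicase on the DNA, a step called licensing, and geminin blocks CDT1 so that an origin is not licensed again in the same cycle. In S phase the kinase CDC7 with its activator DBF4 fires the licensed origins, CDC45 and the GINS complex join MCM2-7 to make the active helicase, and polymerases α, δ and ε copy the strands with the PCNA clamp, its RFC loader, the single-strand binding protein RPA and the enzymes that join Okazaki fragments. Many of these genes are classical targets of E2F transcription factors, and embryonic stem cells, which cycle fast, are known to express them strongly. Each value is an average over the culture, in which fewer cells expressing a gene and less RNA per cell cannot be told apart.

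The promoters of the members were searched for short motifs. RefSeq promoters on GRCm38.p6, 250 bases before to 50 after the start, were at hand for 38 of the 46 genes, as 47 promoters. An E2F-type motif, TTTCCCGC or TTTGGCGC on either strand, stood in 12 of the 47, or 25.5%, against 2.02% of 21263 promoters of coding genes. The 12 genes were Mcm3, Mcm5, Mcm6, Mcm7, Orc3, Cdc6, Cdt1, Gins3, Pola1, Pold1, Pole2 and Rfc3, and Mcm3 held both motifs. The Sp1-type letters GGGCGG, whose reverse complement can share bases with TTTCCCGC, were in 72.3% of the members' promoters and 46.2% of all coding ones, CCAAT in 53.2% and 38.2%, and TTTGAA in 17.02% and 15.99%. A match is a string of letters and not a measured binding site. A few stretches are shown to let the motif be seen beside the levels given further on, each the 150 bases that end just before the RefSeq start, 5′ to 3′ on the strand of the gene, with the motif in capitals. They come from 2 helicase subunits, an ORC subunit and the catalytic subunit of polymerase α, at chr8:75109359-75109508 (plus strand), chr1:128359706-128359855 (minus), chr4:34614943-34615092 (minus) and chrX:93632156-93632305 (minus) in this order.
Mcm5: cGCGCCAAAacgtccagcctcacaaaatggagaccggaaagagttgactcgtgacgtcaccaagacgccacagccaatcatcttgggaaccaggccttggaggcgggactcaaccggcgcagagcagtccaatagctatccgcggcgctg
Mcm6: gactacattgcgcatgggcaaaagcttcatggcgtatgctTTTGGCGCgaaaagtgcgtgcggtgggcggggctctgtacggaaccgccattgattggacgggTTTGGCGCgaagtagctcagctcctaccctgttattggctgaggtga
Orc3: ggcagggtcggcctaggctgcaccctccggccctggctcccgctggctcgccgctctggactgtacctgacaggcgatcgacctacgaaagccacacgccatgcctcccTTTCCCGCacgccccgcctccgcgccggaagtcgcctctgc
Pola1: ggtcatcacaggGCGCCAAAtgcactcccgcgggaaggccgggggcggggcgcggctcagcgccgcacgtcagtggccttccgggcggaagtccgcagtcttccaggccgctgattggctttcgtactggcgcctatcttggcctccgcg
The Mcm6 stretch carries TTTGGCGC at 2 places, starting 110 and 47 bases before the start. In Mcm5 and Pola1 the motif lies on the opposite strand.

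Mcm7 has 3 microRNA genes in its introns, Mir25, Mir93 and Mir106b, on the same strand. Their mature arms are shown because 2 of them share a seed, bases 2 to 8 in capitals, and because their host gene differed from the other helicase genes in its unlabeled introns.
miR-25-3p: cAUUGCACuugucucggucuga
miR-93-5p: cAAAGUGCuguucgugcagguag
miR-106b-5p: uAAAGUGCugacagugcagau
The last 2 share the seed AAAGUGC, and the first has AUUGCAC. The hairpins lie on chromosome 5 of GRCm38.p6, Mir25 at 138165321 to 138165404, Mir93 at 138165523 to 138165610 and Mir106b at 138165737 to 138165818. Their own rows were listed at 0 in both libraries, except for Mir25, which was listed at 0 in labeled and at 279 in unlabeled RNA. These libraries do not measure mature microRNAs.

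Levels are given as exon TPM, an abundance per length of transcript, summed over the coding transcripts of a gene in the deposited unit, whose columns each add up to 10000000. Read depth is unknown, so no counting error can be given. Introns made up 15.4% of the labeled and 6.26% of the unlabeled library. The 10 embryonic stem cell markers were all above 1 in both libraries, with a summed level of 10562 in labeled and 13054 in unlabeled RNA. Of 8 fibroblast markers, 3 were above 1 in labeled and 4 in unlabeled RNA, with sums of 10.1 and 23.4, and Col3a1, Postn and Lum were at 0 in both. Of 10 markers of differentiated lineages, 3 and 4 were above 1, with sums of 79.8 and 80.5, of which Pax6 made up 68.7 and 70.5, and Gata6, Sox17 and Foxa2 were at 0 in both.

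The replication genes were abundant. Their median exon level was 219 in unlabeled and 172 in labeled RNA, against 38 and 34.4 over all coding genes, and 42 of the 46 lay above the unlabeled median of all genes. The 4 below it were Rfc2, Gins3, Rfc3 and Pold1. Noncoding transcripts, left out of these sums, held 87.1% of the unlabeled exon TPM of Rfc2, 78.9% of Rfc3 and 89.8% of Pold1, and Gins3 had none. Together the 46 genes took 0.209% of the unlabeled and 0.155% of the labeled exon signal, and 0.137% and 0.25% of the unlabeled and labeled intron signal. Their introns thus held a larger share of the intron signal in new than in preexisting RNA, and their exons a smaller share of the exon signal. The median coding gene went the same way, with log2 labeled to unlabeled values as deposited of 1.96 for introns and -0.26 for exons. The medians of the members were 2.18 and -0.36. Levels within the set spanned 291-fold in unlabeled RNA, from 13.3 for Rfc2 to 3863 for Lig1. Over complete transcripts alone they spanned 129-fold, and Dbf4 was highest, at 1716.

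**Figure D1:**
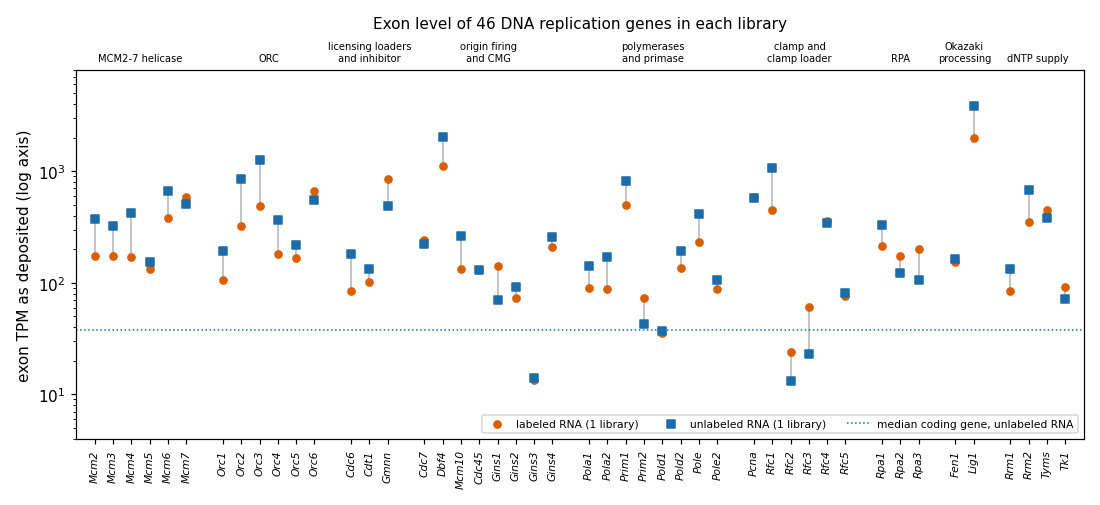
Exon TPM in the deposited unit, on a log axis, of each of the 46 genes in the labeled library (circles) and the unlabeled library (squares), grouped by role, with the median coding gene in unlabeled RNA as a dotted line. Lig1 and Dbf4 stand highest in both libraries, and Rfc2, Gins3, Rfc3 and Pold1 lie under the dotted line in unlabeled RNA.

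The labeled to unlabeled exon ratio asks which genes had the most new RNA beside their preexisting RNA. It is given as a log2 ratio relative to the median coding gene, since each library is scaled to its own total, and the median of all genes before this step was -0.26. The members had a median log2 ratio of -0.11, with quartiles of -0.63 and 0.36, where all coding genes had quartiles of -0.68 and 0.84. Of the 46, 20 were above the median gene and 26 below it. Over 2-fold higher in labeled RNA were 6, beside 21.9% of all genes, and over 2-fold lower were 3, beside 14.8% of all genes. As shares these are 13.04% and 6.52%, both below those of all genes. Among 4401 coding genes with a mean exon value above 100, on the same zero, the median was -0.38. Of these, 10.0% were over 2-fold higher, under the share of the members, and 19.6% were over 2-fold lower, above it. The 6 were Rfc3, Gins1, Rpa3, Rfc2, Gmnn and Prim2, and the 3 were Orc2, Orc3 and Mcm4. With transcripts of every biotype Gmnn, at 0.98, was no longer past 2-fold, and Cdc6, at -1.36, was. The median and the lower count rest on which genes set the zero. Relative to genes with a mean exon value above 10, the median of the members was 0.04 and none was over 2-fold lower, beside 1164 of all such genes. The total of such genes is not given here, so no share can be set beside this count. Relative to genes above 100, none of the 37 members left was over 2-fold lower, beside 335 of 4401 genes. With the ratio as deposited, 1 member was over 2-fold higher, beside 2457 of 14127 genes. On that scale 6 members were over 2-fold lower, beside 3210 genes.

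**Figure D2:**
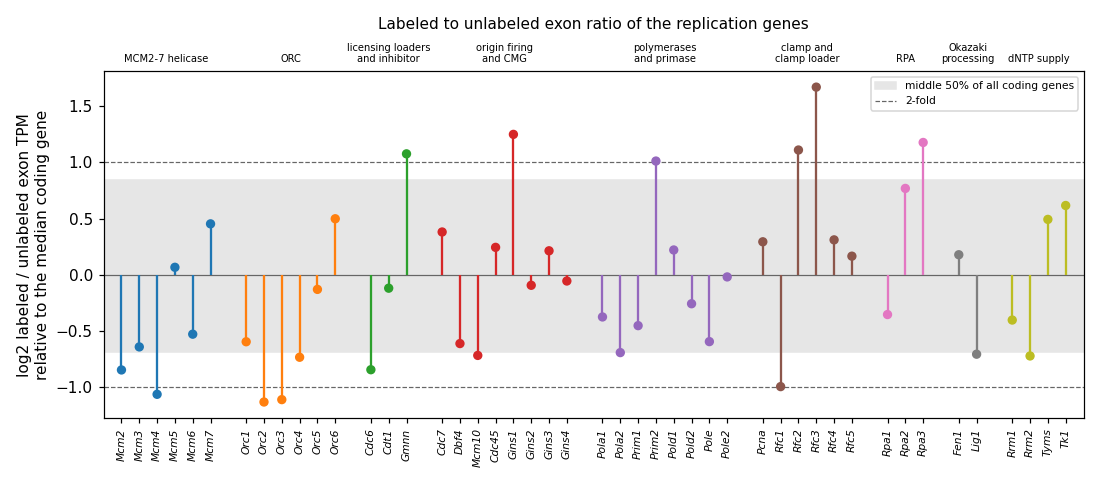
Log2 of labeled over unlabeled exon TPM for each gene, relative to the median coding gene (0), with the middle 50% of all coding genes shaded and dashed lines at 2-fold. Most members lie inside the shaded band, the ORC and MCM2-7 genes mostly below 0 and the clamp loader and RPA genes mostly above it.

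The 6 subunits of the MCM2-7 helicase, which unwinds the DNA at the fork, were present at 152 to 661 in unlabeled RNA, a 4.34-fold range. Mcm6 was highest, with 384 in labeled and 661 in unlabeled RNA. Mcm5 was lowest, with 134 in labeled and 152 in unlabeled RNA. Their proteins form a ring of 1 copy each, and the transcripts kept no common level in either pool. Mcm2 had 173 labeled and 371 unlabeled, Mcm3 174 and 325, and Mcm4 170.4 and 425. Over coding transcripts these 3 were thus nearly level in new RNA and spread in preexisting RNA. Noncoding transcripts, left out here, were listed in labeled RNA at 93.6 for Mcm2 and 861 for Mcm3, and Mcm4 had none, so the evenness does not extend to them. Mcm4 had the lowest log2 ratio of the 6, -1.06, followed by Mcm2 at -0.85. Mcm7 was the reverse case, with 582 labeled, 508 unlabeled and a log2 ratio of 0.45. The median of the group was -0.58, with 4 genes below the median gene.

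Introns set Mcm7 apart as well. The intron to exon ratio, intron TPM over exon TPM in the same library, follows the share of unspliced RNA. In unlabeled RNA it was 0.166 for Mcm7 and 0.0122 to 0.0837 for the other 5 subunits, with Mcm2 lowest. In labeled RNA Mcm7 was not apart, at 0.329 between 0.118 for Mcm2 and 0.369 for Mcm5. Exons of other genes, the microRNA hairpins, covered 4.33% of its intron bases. It also has 7 coding transcripts in the table, 5 of them annotated as incomplete, and its full-length transcript of 15 exons, ENSMUST00000000505 at positions 138164583 to 138172422 of chromosome 5, had an unlabeled ratio of 0.0603 by itself and a log2 ratio of -0.05. The parts that these features play in the Mcm7 values were not tested.

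ORC, which marks origins and helps to load the helicase, held 2 of the 3 members over 2-fold lower in labeled RNA. Orc2 had 324 in labeled and 847 in unlabeled RNA, a log2 ratio of -1.13, the lowest of the 46. Orc3 had 490 in labeled and 1262 in unlabeled RNA, a log2 ratio of -1.11 and the highest unlabeled level of the complex. Orc6, the smallest subunit, was the one gene of the 6 above the median gene, with 657 labeled, 556 unlabeled and a log2 ratio of 0.50. Orc1, whose protein is known to rise and fall with the cell cycle, had the lowest unlabeled level, 191, with 106 in labeled RNA. The median log2 ratio of the complex was -0.66, beside -0.58 for MCM2-7. The order of these 2 groups depended on the transcripts counted, with -0.53 against -0.57 over complete transcripts and -0.48 against -0.67 over every biotype. Its labeled intron to exon ratios ran from 0.160 in Orc6 to 1.17 in Orc4, and its unlabeled ones from 0.0295 in Orc3 to 0.152 in Orc4.

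The Orc2 and Orc3 sums include short incomplete transcripts, with a lower ratio in Orc3 and with ratios on either side of the complete ones in Orc2. Orc3 has an incomplete transcript of 838 bases, ENSMUST00000140334 on chromosome 4 from 34593059 to 34614893, that was listed at 172 in labeled and 611 in unlabeled RNA, a log2 ratio of -1.57. Its 2 complete transcripts were at -0.74 and -0.81. For Orc2 an incomplete transcript of 372 bases stood at 37.0 and 169, a log2 ratio of -1.93, and another of 370 bases had -0.56. Its complete transcript of 3561 bases stood at 135 and 258, a ratio of -0.68. The other complete one, of 1587 bases, had -1.34 and held 43.0% of the unlabeled value, the largest share. Over complete transcripts alone, on the same zero, Orc2 had -1.03 and Orc3 -0.78, so Orc3 was no longer past 2-fold.

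The genes of licensing control went different ways. Gmnn, which encodes the CDT1 inhibitor geminin, was at 856 in labeled and 485 in unlabeled RNA, a log2 ratio of 1.07. Cdc6, an ATPase that loads MCM2-7, was at 85.1 and 182, a log2 ratio of -0.84. Cdt1, the loading partner that geminin blocks, had 102 and 132 and a log2 ratio of -0.12. The inhibitor therefore stood above both loaders in each pool, and by more in new RNA. Intron to exon ratios were lowest in Gmnn, 0.131 labeled and 0.0227 unlabeled, and highest in Cdt1, 0.351 and 0.0438.

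Among the firing factors the 2 partners of the kinase were unequal. Dbf4, the activator, had 1113 in labeled and 2029.9 in unlabeled RNA, the second highest level of all 46 genes. Cdc7, the kinase itself, had 240.2 and 220.4. Their log2 ratios were -0.61 and 0.38. Dbf4 thus exceeded its partner in both pools, with the larger gap in preexisting RNA. Mcm10, a factor for helicase activation, had the lowest log2 ratio of this group, -0.72, with 133 labeled and 261 unlabeled. Cdc45, which bridges to the active helicase, was level, at 129 and 131, with a log2 ratio of 0.24.

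The 4 GINS subunits bind each other in equal numbers, and their transcripts spread widely. Over coding transcripts Gins4 was highest, at 208 in labeled and 258 in unlabeled RNA, with a log2 ratio of -0.06. Noncoding transcripts, left out of these levels, were listed at 1468 in labeled and 705 in unlabeled RNA for Gins1, and Gins4 had none. The order of the subunits thus depends on the transcripts counted. Gins1 had 140.3 and 70.6 and a log2 ratio of 1.25, second among the members. Gins2 had 72.6 and 92.5 with the lowest labeled intron to exon ratio of the firing group, 0.0868. Gins3 was lowest, at 13.5 and 13.9, and its intron to exon ratios of 2.49 labeled and 0.619 unlabeled were the highest of the group. Its introns alone stood at 33.7 in labeled and 8.63 in unlabeled RNA, so in new RNA they exceeded its exons.

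Of the polymerase and primase genes, Prim1 was most abundant and Pold1 least over coding transcripts. Prim1, the catalytic primase subunit, had 496 in labeled and 810.4 in unlabeled RNA, a log2 ratio of -0.45. Its partner Prim2 had 72.5 and 43.0 and a log2 ratio of 1.01, just past 2-fold, which became 0.95 with a pseudocount of 1 and 0.96 without the filter. These 2 subunits of 1 enzyme lay on either side of the median gene. Pold1, the catalytic subunit of polymerase δ, had 35.8 and 36.7, and its partner Pold2 had 135 and 193. Polymerase α followed the group, with Pola1 at 90.6 and 140.2 and Pola2 at 88.5 and 171, and Pola2 had the lowest log2 ratio, -0.69. Pole, the catalytic subunit of the leading-strand polymerase ε, had 229.5 and 414, and Pole2 87.3 and 106.

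Pold1 and Pold2 also marked the ends of the intron range. Pold2 had the lowest ratios of all 46 genes, 0.0258 labeled and 0.00222 unlabeled, with an unlabeled intron level of 0.43. Pold1 had the highest of the polymerase group, 0.950 labeled and 0.311 unlabeled. The Pold1 values join 0.513 and 0.108 for its transcript of 27 exons and 1.94 and 2.14 for an incomplete one of 581 bases. The former by itself was under the unlabeled ratio of Prim2, 0.172. Over summed transcripts these 2 subunits of 1 enzyme thus differed in both pools.

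The clamp and its loader included the gene with the highest log2 ratio of the set. Rfc3 had 61.0 in labeled and 22.9 in unlabeled RNA, a log2 ratio of 1.67 or 3.18-fold. Rfc2 had 24.0 and 13.3 and a log2 ratio of 1.11. Both are small loader subunits with low levels over coding transcripts. Rfc1, the large subunit, had the highest level of the group in unlabeled RNA, 444 against 1057, and at -0.99 it was just short of 2-fold lower, a limit it passed with -1.04 without the filter. Rfc4 had 356 and 343, Rfc5 75.7 and 80.6, and Pcna, the sliding clamp itself, 587 and 573, with log2 ratios of 0.31, 0.17 and 0.29. Pcna had the lowest intron to exon ratios of the group, 0.168 labeled and 0.0290 unlabeled, and Rfc2 the highest, 0.881 and 0.896. The annotation names 2 processed copies, Pcna-ps1 and Pcna-ps2, with which reads of Pcna could be shared, and a copy of Tyms called Tyms-ps.

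The RPA subunits coat single-stranded DNA, and their median log2 ratio was 0.77, which is the value of Rpa2. Rpa3 had 200.0 in labeled and 106 in unlabeled RNA, a log2 ratio of 1.18. Rpa2 had 175 and 123, a log2 ratio of 0.77, which joins 2.13 for an incomplete transcript and 0.40 for the complete one. With every biotype counted, Rpa2 and the group median came to 0.05, under the 0.23 of the clamp and its loader. Rpa1, the large subunit, had 215 and 328 and a log2 ratio of -0.35. Over coding transcripts the 3 subunits were within 175 to 215 in labeled RNA, and in unlabeled RNA they ranged from 106 to 328. The complete Rpa2 transcript by itself had 119 in labeled RNA. Noncoding transcripts, left out here, were listed in labeled RNA at 285 for Rpa1, 80.4 for Rpa2 and 40.5 for Rpa3. The evenness thus depends on the transcripts counted. Labeled intron to exon ratios were lowest in Rpa3, 0.0675, and highest in Rpa1, 0.499. The unlabeled ratio was lowest in Rpa3, 0.0267, and highest in Rpa2, 0.0705.

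Lig1, the ligase that seals Okazaki fragments, had the highest summed level in both pools, with 1983 labeled and 3863 unlabeled and a log2 ratio of -0.71. Incomplete transcripts held 69.8% of its unlabeled value, and its 3 complete transcripts together came to 632 in labeled and 1167 in unlabeled RNA, under the 952 and 1716 of Dbf4. Fen1, the flap nuclease that trims the fragments before ligation, had 154 and 162 and a log2 ratio of 0.18. Its intron to exon ratios of 1.60 and 0.389 were far above those of Lig1, 0.108 and 0.00754. Of the bases that the annotation calls Fen1 intron, 49.7% were covered by exons of the antisense gene Gm10143, itself at 48.7 in labeled and 52.3 in unlabeled RNA. Whether the counting used strand is not given in the sources used here, so reads of the 2 genes cannot be told apart.

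The enzymes that supply deoxynucleotides split evenly around the median gene. Rrm2, the regulated small subunit of ribonucleotide reductase, had 348 in labeled and 685 in unlabeled RNA and a log2 ratio of -0.72, the lowest of the 4. Rrm1, its large subunit, had 83.9 and 132 and a log2 ratio of -0.40. Thymidylate synthase, Tyms, had 448 and 381, and thymidine kinase, Tk1, 91.5 and 71.3, with log2 ratios of 0.49 and 0.62. The reductase subunits were thus on the lower side and the thymidylate enzymes on the higher side. Rrm2 had the lowest unlabeled intron to exon ratio of the group, 0.0129, with 0.333 in labeled RNA, so its ratio was 25.9-fold higher in new RNA, the largest such step among the 46 genes. Rrm1 had the lowest labeled ratio, 0.190, and Tk1 the highest of both, 0.576 and 0.175.

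Read together, the intron to exon ratios of the replication genes were low. The median was 0.331 in labeled and 0.0425 in unlabeled RNA, where all genes had 0.577 and 0.122. The unlabeled ratio was below the median of all genes in 37 of the 46, and the labeled ratio above it in 7. The labeled ratio exceeded the unlabeled one by a median of 6.72-fold, against 4.65-fold over all genes. The unlabeled level and the unlabeled ratio had a Spearman correlation of -0.66 over 13026 genes and -0.50 over the 46, in which the exon level is also the denominator of the ratio. Among 4401 coding genes with a mean exon value above 100 the medians were 0.331 and 0.0494, close to those of the replication genes.

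The study's model derives both ratios from a processing and a degradation rate, which is possible only where the labeled ratio is under 1 and above the unlabeled one. Of the 46 genes 41 met this, or 89.1%, beside 65.7% of 13026 coding genes, and beside 92.1% of those with a mean exon value above 100. A labeled ratio of 1 or more, beside 28.9% of all genes, was found in Gins3 at 2.49, Fen1 at 1.60, Orc4 at 1.17 and Orc2 at 1.07. Only Rfc2 had a labeled ratio under 1 that was not above the unlabeled one, 0.881 against 0.896, beside 5.37% of all genes. Gins3 and Rfc2 are the 2 members with the lowest unlabeled exon levels. Exons of another gene covered 49.7% of intron bases in Fen1, 2.16% in Orc2, from Nif3l1 on the opposite and Gm23966 on the same strand, and 0.131% in Orc4. Such overlaps were found in 15 members, or 32.6%, and in 36.1% of all coding genes.

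**Figure D3:**
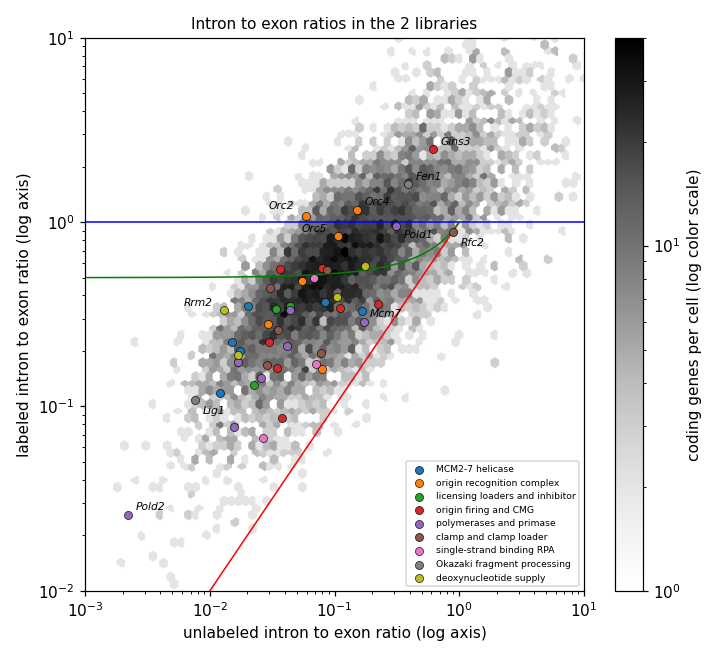
Labeled against unlabeled intron to exon ratio, both on log axes, for all coding genes (gray, darker where more genes fall) and the 46 members (colored by role). The red diagonal and the blue line at 1 bound the region the model allows, above the green line the model has a unique solution, and most members sit left of the bulk and under the green line.

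An exact solution was found for 9 of the 41 genes, beside 42.7% of all genes in the allowed region. Above the line where the solution is unique lay 6 of them. Their degradation half-lives were 5.71 min for Tk1, 12.3 min for Rfc4, 15.3 min for Cdc45, 36.6 min for Mcm10, 106 min for Orc5 and 133 min for Pold1. From the main transcript only, Pold1 came to 5.76 min, Orc5 to 25.5 min, Mcm10 to 18.8 min and Rfc4 to 4.68 min, and from complete transcripts Cdc45 to 3.30 min. Orc5 carries the pseudogene Gm15421 in an intron on the same strand, listed at 2432 in labeled and 688 in unlabeled RNA, and Rfc4 overlaps Eif4a2, listed at 17172 and 14418. Exons of other genes covered 0.819% of intron bases in Orc5, 0.231% in Rfc4 and 3.19% in Pold1. Below the line 3 genes had 2 solutions, and the one nearer to the typical gene was 9.58 min for Rpa1 (5.66 min from its main transcript), 10.4 min for Orc1 and 13.5 min for Rfc5, the other being 0.569, 0.739 and 1.04 min. In Orc1 exons of Gm12743, on the opposite strand, covered 10.1% of intron bases, and that gene was listed at 27.6 in labeled and 14.6 in unlabeled RNA. For the remaining 32 of the 41 genes no pair of rates gives both ratios, and the closest fit was taken.

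Over the 41 genes the median degradation half-life was 19.4 min and the median processing half-life 3.34 min, against 18.8 and 3.97 min over all genes. These medians changed with the fit. When the closest fit ran over both variables at once, the medians were 4.25 and 1.75 min, against 4.64 and 1.82 min over all genes. With the second library read as total RNA they were 51.4 and 1.75 min, against 44.0 and 2.91 min. The order of the genes was not kept either, since the Spearman correlation with the study's equations over the 41 genes was 0.23 for the first and -0.04 for the second. Rrm2, at 5.21 min, went from among the shortest half-lives to the longest, 186 min, when the library was read as total RNA. Pold2 had 123 min by the closest fit, 8.15 min over both variables and 76.8 min from total RNA. The 9 exact solutions involve no closest fit, and their medians were 13.5 and 4.38 min, against 24.0 and 6.86 min over all genes with an exact solution. Whether the degradation median lay above or below that of all genes thus changed with the setting. The 9 exact half-lives too changed with the transcripts counted, by over 1.5 times in 5 of 9 with the main transcript only and in 7 of 9 with every biotype. With the second library read as total RNA 7 of 9 moved. When leakage of unlabeled RNA into the labeled pool was subtracted, Orc5 and Pold1 had no value and 7 of the other 7 moved, with Mcm10 at 182 min.

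**Figure D4:**
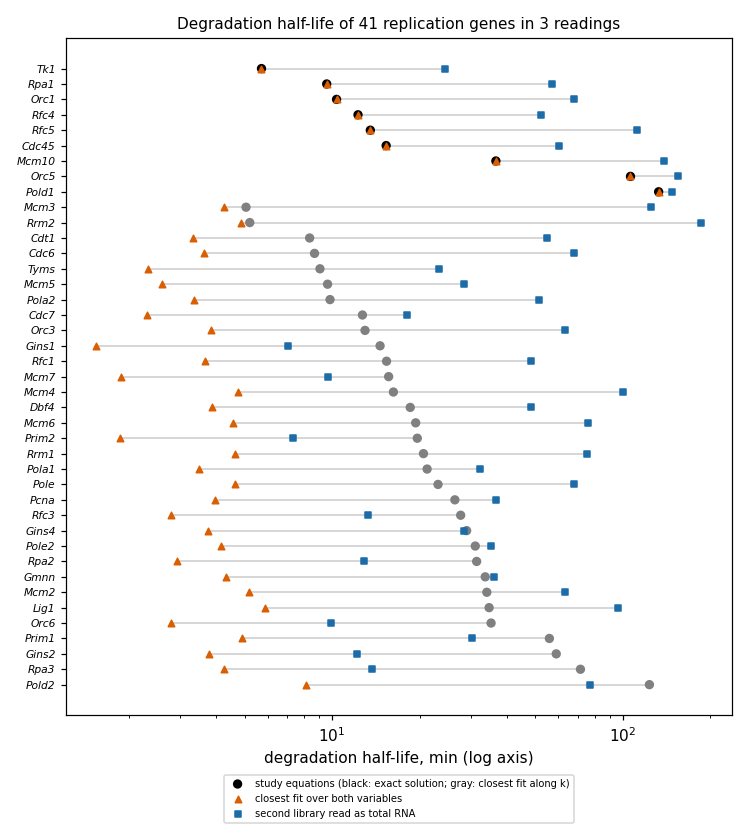
Degradation half-life in min, on a log axis, of the 41 genes in the allowed region, with the study's equations (circles, black for the 9 exact solutions and gray for the closest fit), the closest fit over both variables (triangles) and the second library read as total RNA (squares). Triangles fall on the black circles and to the left of the gray ones, and the squares follow another order.

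Which transcript carries a gene's value differed between members. A single coding transcript was listed for 19 genes and several for 27, and in the latter the main transcript held a median of 50.6% of the labeled and 48.4% of the unlabeled value. The main transcript was not the same in the 2 libraries in 10 of the 27: Cdc7, Dbf4, Fen1, Orc2, Orc3, Orc4, Orc5, Orc6, Pola2 and Pole. In most of these the leading transcripts were nearly level. For Cdc7 the 4 coding transcripts each held between 22.5% and 26.4% of the gene. Pole was a clearer case. Its full transcript of 49 exons held 46.5% in unlabeled and 36.6% in labeled RNA, where a transcript of 9 exons and 1523 bases led with 46.7%. In Orc4 the complete transcript of 14 exons held 18.2% in unlabeled and 31.2% in labeled RNA, where it led, and an incomplete one of 812 bases led in unlabeled RNA with 34.3%.

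Incomplete transcripts, which the annotation marks as lacking an end, numbered 28 of the 104 and belonged to 16 genes. They held more than 50% of the unlabeled value in 6 genes: Tyms 78.2%, Lig1 69.8%, Orc4 61.1%, Pold2 59.8%, Orc5 53.6% and Rrm2 52.7%. In each of these the share was lower in labeled RNA, for example 72.4% in Tyms and 45.3% in Orc5. The share was higher in labeled RNA in 5 genes, in Mcm7 with 44.3% labeled and 29.8% unlabeled, in Rpa2 with 31.9% and 12.4%, in Pold1 with 30.6% and 9.98%, in Cdc45 with 19.3% and 15.3% and in Rfc1 with 10.0% and 8.88%. Summing over transcripts adds these short entries to the level of a gene, and across the 46 genes the unlabeled level had a Spearman correlation of 0.61 with the number of coding transcripts, against 0.29 over all genes. The part of the annotation in the order of the levels was not tested beyond this.

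**Figure D5:**
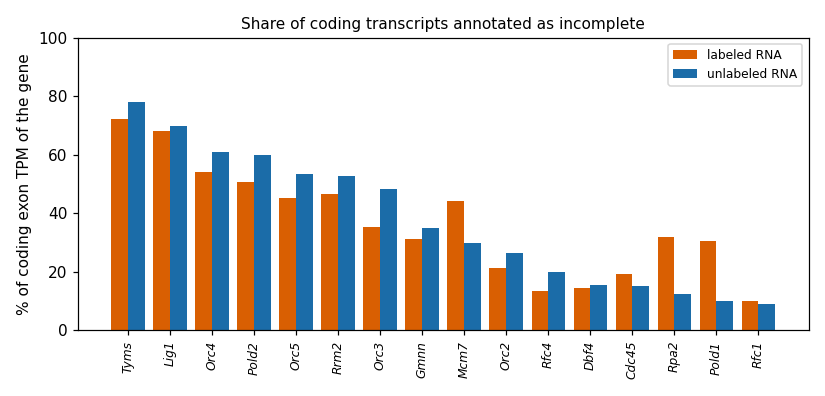
Percent of a gene's coding exon TPM that lies in transcripts annotated as incomplete, in labeled and unlabeled RNA, for the 16 genes that have any. Bars start at 0. The 6 genes on the left are above 50% in unlabeled RNA, and Mcm7, Rpa2, Pold1, Cdc45 and Rfc1 have the larger share in labeled RNA.

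The structure of the main transcript, here the one with the highest mean exon value over the 2 libraries, varied with the labeled to unlabeled ratio within the set. In Lig1, Orc3, Orc4, Tyms and Pold2 it was an incomplete transcript, in Lig1 with 7 exons where the complete forms have 29. For these genes it is thus not the structure of the full gene. Across the 46 genes the log2 ratio had a Spearman correlation of -0.42 with the number of exons of the main transcript, -0.39 with the unspliced length, -0.29 with the number of uridines in the spliced transcript and -0.57 with the unlabeled level. Over all coding genes these were -0.23, -0.28, -0.30 and -0.45. Genes of a set share their libraries, and the level enters both sides of the last relation. With an E2F-type motif in the promoter, 12 genes had a median log2 ratio of -0.07, from -1.11 in Orc3 to 1.67 in Rfc3, and the 26 without had -0.31. Unlabeled levels of the 12 ran from 13.9 to 1262, and their median labeled intron to exon ratio, 0.333, stood beside 0.338 for the others. The levels and ratios of the genes with and without the motif overlapped.

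Beside the members, 45 other entries for replication genes were measured, under 44 symbols since Chtf8 has 2 gene identifiers, such as repair and chromatin factors of the fork. Their median log2 ratio was -0.29, with 4 over 2-fold higher and 9 over 2-fold lower, and their median intron to exon ratios were 0.405 and 0.0617. The extremes were Rnaseh2c, a ribonuclease H2 subunit, at 2.23 and Lrwd1, an ORC partner, at 1.55 on the high side, and Dck, a deoxycytidine kinase, at -1.56 and Uhrf1, which reads hemimethylated DNA, at -1.52 on the low side. Mitosis genes, 44 in number, had a median of -0.56 and 30 regulators of the step from G1 to S had -0.52. The 46 members stood nearer to the median gene than these 3 lists, but no test of that difference is possible with 1 library per pool. That order also rests on the zero. The 4401 coding genes with a mean exon value above 100 had a median of -0.38, and all 3 lists lay nearer to that value than the members did.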

How the data were processed

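Labeled and unlabeled RNA of 1 culture, 1 library each, were analysed. The authors removed reads of ribosomal RNA, aligned the rest to exons and introns of Ensembl transcripts (mm10, GRCm38) with STAR 2.5.0 and quantified them with RSEM. The deposited values, called TPM, form a score in relative abundance that sums to 10000000 per column, and they keep no counts.

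Coding transcripts of a gene were summed, with biotypes, lengths and positions from GENCODE M21 (90.9% of rows matched). Genes with a mean exon value above 1 were kept. Rates followed the study's equations for labeled and unlabeled ratios with 10 min of labeling. Roots were sought on 4000 grid points, and the solver was tested on simulated rates without noise, where it recovered 100% of 1974 cases above the line of a unique solution and of 1026 below it. Half-lives are the natural logarithm of 2 over a rate. With 1 library per pool no test was run. Called means past 2-fold relative to the median coding gene.

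The members, their role groups and the other lists were chosen with earlier results of these data known. Genes were named by a rule: within each role group the highest and lowest level, log2 ratio and intron to exon ratios, every member past 2-fold, outside the allowed region, with an exact solution or with a different main transcript, and the 2 highest and lowest of the other replication genes. Alternatives covered the filter, pseudocounts, transcript choice, leakage of unlabeled RNA, the zero of the log2 ratio, the choice of solution and the reading of the second library. Restriction to complete transcripts and to a mean exon value above 100 was added after the data had been seen. Python 3.11.15, pandas 2.3.3, numpy 2.4.6, scipy 1.17.1, matplotlib 3.10.9 and bedtools 2.31.1 were used. Promoters and microRNAs came from RefSeq.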

Additional observations from a re-analysis of the deposited data

How the results depend on the processing

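The median intron to exon ratios, the share of members in the allowed region and the count of members over 2-fold higher stayed within 1.5 times under the transcript, biotype, pseudocount, filter and leakage alternatives. The count of members over 2-fold lower, 3, became 0 with a mean exon value above 10, beside 1164 of all such genes, whose total is not given here. It was also 0 above 100, a limit added after seeing the data, where 37 members remained, beside 335 of 4401 genes. In both the zero is set by more abundant genes. The count became 6 with leakage subtracted, beside 2971 of all genes that passed after this step, whose total is not given here either. Leakage was taken as 0.143 times the unlabeled value, a step that lowers every labeled value. With the ratio as deposited the count was 6, beside 3210 of 14127 genes, and 1 member was over 2-fold higher, beside 2457. The median degradation and processing half-lives were 4.25 and 1.75 min by the closest fit over both variables, beside 4.64 and 1.82 min over all genes. With the second library as total RNA they were 51.4 and 1.75 min, beside 44.0 and 2.91 min. Among single genes the half-life moved by over 1.5 times in 30 of 41 by the closest fit over both variables, in 34 of 41 with total RNA, in 18 of 41 with every biotype, in 16 of 39 with leakage subtracted, in 10 of 40 with the main transcript only, in 7 of 41 with complete transcripts and in none of 41 with either pseudocount. The log2 ratio of single genes moved in 1 of 46, Rpa2 at 0.05, with transcripts of every biotype and in none under the other alternatives. Counting every biotype, the main transcript held a median of 28.4% of labeled and 30.1% of unlabeled RNA. The values of the intron to exon ratios need no choice between unlabeled and total RNA, since they are taken within a library. Calling those of the second library unlabeled does need it, since total RNA would also hold the new RNA. No paired analysis was possible because each pool has 1 library. Read depth is unknown, so the error of low genes such as Rfc2, Gins3 and Rfc3 cannot be given.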

Other observations

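Noncoding transcripts of the same genes were left out of the values above. Of the 46 genes, 35 had 138 such transcripts, 84 of them retained-intron forms, and these held a median of 56.4% of a gene's labeled and 55.5% of its unlabeled exon TPM. Retained-intron forms were listed for 30 genes, with a median share of 38.2% in labeled and 41.03% in unlabeled RNA, against 27.1% and 21.5% over 5773 coding genes that have them. The share was higher in labeled RNA in 22 of the 30 genes and in 67.8% of all genes.

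Single genes differed widely. In Rrm2, the small ribonucleotide reductase subunit, the retained-intron form held 30.8% of labeled and 3.52% of unlabeled RNA. Rpa2 went the other way, with 26.6% labeled and 44.5% unlabeled, as did Cdc6, with 23.1% and 43.2%. For Mcm3 and Rfc3 the share was large in both pools, 83.2% and 81.0% for Mcm3 and 83.5% and 78.9% for Rfc3. These genes were chosen after their values were seen.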
